A study of Mus musculus with 6 samples.

Results

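ATAC-seq peak lists of undifferentiated inguinal preadipocytes were searched for sites that were listed in double knockout cells and in no wild type library. The lists came from 3 WT and 3 DKO libraries at day 0, before induction of differentiation, both with C57BL/6 given as the strain. DKO cells lack both HMGN1 and HMGN2 (Hmgn1-/- and Hmgn2-/-). Per the study, the cells were primary preadipocytes from the inguinal white fat of adult mice, grown on collagen-coated plates, the knockout line is congenic on the B6 background, and WT were C57BL/6 mice that are not described as littermates. The labels number the libraries of a genotype as replicates 1 to 3. Whether these came from separate animals is not stated for ATAC-seq in the sources used here, and the spread between them may then be technical.

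Intervals of the 6 lists that shared at least 1 bp were merged, which gave 262808 regions on chromosomes 1 to 19. A region was called DKO-only when it had a line in all 3 DKO lists, with a −log10 q above 2 in at least 2 of them, and no line in any WT list. The members were thus chosen by their presence in DKO and absence in WT, and their height in DKO against WT is a description that was not tested. The rule was met by 2076 regions, which is 0.790% of all. The same rule with the genotypes exchanged was met by 2226 regions (WT-only, 0.847%), and 97207 regions were listed in all 6 libraries. The condition on q removed no region with lines in all 3 DKO lists and none in WT.

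ATAC-seq uses the transposase Tn5 to cut accessible DNA, so a peak marks a stretch where nucleosomes are displaced or loosely held, usually a promoter, an enhancer or a boundary element. HMGN proteins are small proteins that bind nucleosomes without regard to DNA sequence and compete there with linker histone H1. In fat precursors, open enhancers are commonly held by AP-1, TEAD, C/EBP and EBF factors, and sites of the architectural protein CTCF are open in most cell types.

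Members were ranked by the lowest of their 3 DKO −log10 p values, and the highest in this order are called the strongest. Sequences are given first for 6 of the 7 strongest, and for the strongest in Ptprm, a gene with 5 members. Each is the 201 bp centred on the best DKO summit, on the plus strand of GRCm38 (mm10), read from the RefSeq genome. Capitals mark matches on either strand to the motifs searched: AP-1 (TGANTCA), TEAD (GGAATG), C/EBP (TTGCNNAA), RUNX (TGTGGTT), ETS (CCGGAAGT), SP/KLF (GGGGCGGGG), CRE (TGACGTCA), E-box (CAGCTG), the core of homeobox sites (TAATTA), NF-Y (CCAATCA) and sites of GATA factors (AGATAA), and EBF, NF-I and CTCF by their consensus sequences. Where motifs overlap, the capitals run together.

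Fry intron, chr5:150406884-150407084: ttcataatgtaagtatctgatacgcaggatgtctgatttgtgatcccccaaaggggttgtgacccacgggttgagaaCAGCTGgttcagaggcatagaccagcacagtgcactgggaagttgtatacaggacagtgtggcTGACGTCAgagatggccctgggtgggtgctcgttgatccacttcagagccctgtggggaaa
Ankrd66 intron, chr17:43535046-43535246: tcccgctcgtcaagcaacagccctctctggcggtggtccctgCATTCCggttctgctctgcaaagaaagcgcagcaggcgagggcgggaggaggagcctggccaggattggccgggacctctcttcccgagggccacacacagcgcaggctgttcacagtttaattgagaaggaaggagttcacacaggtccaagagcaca
Slco5a1 intron, chr1:12933691-12933891: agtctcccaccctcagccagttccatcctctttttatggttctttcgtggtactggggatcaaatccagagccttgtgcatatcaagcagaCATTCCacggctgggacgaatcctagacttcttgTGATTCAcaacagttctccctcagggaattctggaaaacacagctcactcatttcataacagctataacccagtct
Nearest to Psg28, intergenic, chr7:18404075-18404275: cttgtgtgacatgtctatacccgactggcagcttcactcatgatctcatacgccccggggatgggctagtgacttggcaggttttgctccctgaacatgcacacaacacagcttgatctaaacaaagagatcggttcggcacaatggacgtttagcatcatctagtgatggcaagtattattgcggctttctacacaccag
Nearest to Ubl3, intergenic, chr5:148647716-148647916: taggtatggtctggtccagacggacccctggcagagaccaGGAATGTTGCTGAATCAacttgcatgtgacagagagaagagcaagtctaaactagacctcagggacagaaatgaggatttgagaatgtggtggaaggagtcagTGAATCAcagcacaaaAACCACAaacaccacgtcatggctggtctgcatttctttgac
Nearest to Cdc5l, intergenic, chr17:45170342-45170542: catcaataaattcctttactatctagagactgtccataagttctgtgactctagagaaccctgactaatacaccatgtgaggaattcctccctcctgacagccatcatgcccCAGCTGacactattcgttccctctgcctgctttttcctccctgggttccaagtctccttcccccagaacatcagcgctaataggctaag
Ptprm intron, chr17:67326752-67326952: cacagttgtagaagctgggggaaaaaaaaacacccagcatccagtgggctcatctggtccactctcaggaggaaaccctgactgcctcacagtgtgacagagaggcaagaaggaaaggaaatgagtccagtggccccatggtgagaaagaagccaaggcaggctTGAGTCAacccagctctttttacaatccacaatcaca

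No motif was found in all 7 windows. The Ankrd66 window held 1 TEAD match. The Fry window held 1 CRE and 1 CAGCTG E-box, and the Cdc5l window 1 CAGCTG E-box. The Ubl3 window held 2 AP-1 matches, and those at Slco5a1 and Ptprm held 1 AP-1 match each. TEAD matches were also found at Slco5a1 and Ubl3, and the Ubl3 window held 1 C/EBP and 1 RUNX match. None of the motifs searched was found in the Psg28 window. A match to letters is a description and says nothing about binding.

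The strongest member lay in an intron of Fry, which encodes a large microtubule-associated protein (chr5:150406677-150407355). Fold enrichment, the deposited ratio of cut sites at a summit to the local background, was 12.4, 15.5 and 14.6 in DKO replicates 1 to 3, which rests on 58, 76 and 58 cut sites. All 3 values were far above the ends of the WT lists, and the nearest WT line began 1648 bp away. The region chr18:11551858-11552336, for which Rbbp8, a DNA end resection factor, has the nearest protein-coding TSS, 81105 bp away, followed with a fold enrichment of 15.1, 13.7 and 13.5.

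An intron of Ankrd66, a gene for an ankyrin repeat protein, held the next member (chr17:43534626-43535241), at a fold enrichment of 13.3, 13.7 and 11.9. Slco5a1, which encodes an organic anion transporter family member, held 2 tall members in its introns. The first (chr1:12933494-12934056) reached 11.7, 13.3 and 12.8 in DKO replicates 1 to 3. The second (chr1:12968038-12968640) reached 13.2, 10.2 and 7.73, so its replicates differed more. A further member assigned to Slco5a1, in intergenic sequence (chr1:13042407-13042622), stood at 3.63, 3.12 and 2.95, close to the end of the lists.

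A stretch of chromosome 7 beside Psg28, one of the pregnancy-specific glycoprotein genes expressed in placenta, held 3 members close together. The tallest (chr7:18403798-18404320) had a fold enrichment of 12.9, 16.2 and 11.8. Beside it, chr7:18403134-18403273 stood at 8.11, 7.09 and 6.88 and chr7:18403549-18403691 at 5.59, 5.10 and 5.90. Here no WT library had any line within 100 kb, whereas DKO replicates 1 to 3 had lines in 5, 5 and 12 of the 13 other regions. The nearest WT line lay 275626 bp from the tallest member. The same 100 kb around Fry held lines in 10, 10 and 12 regions in WT and 8, 9 and 11 in DKO, so both genotypes were covered there. Over the 15 strongest members, the Psg28 stretch was the only one in which the WT lists were empty. Psg genes are a family of close copies, and how reads that align to several copies were handled is not given in the sources used here. Whether the 3 regions themselves have copies elsewhere was not measured, so they are uncertain.

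The next members in order were near Ubl3, a ubiquitin-like protein (chr5:148647581-148648298, 9.73, 12.7 and 11.1 in DKO replicates 1 to 3), and near Cdc5l, a splicing factor (chr17:45170221-45170697, 13.2, 9.89 and 8.88). The rest of the 15 strongest, from Stt3b, a subunit of the oligosaccharyltransferase, to Opn5, a photopigment, had fold enrichments between 5.15 and 11.1. The exonic member at Gm10499 (chr17:36144963-36145756; 10.2, 10.4 and 7.54) lay in the H2 complex, whose genes are also close copies. Of the 15, 6 were in introns, 8 in intergenic sequence and 1 in an exon, and none lay within 1 kb of a protein-coding TSS.

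**Figure D1:**
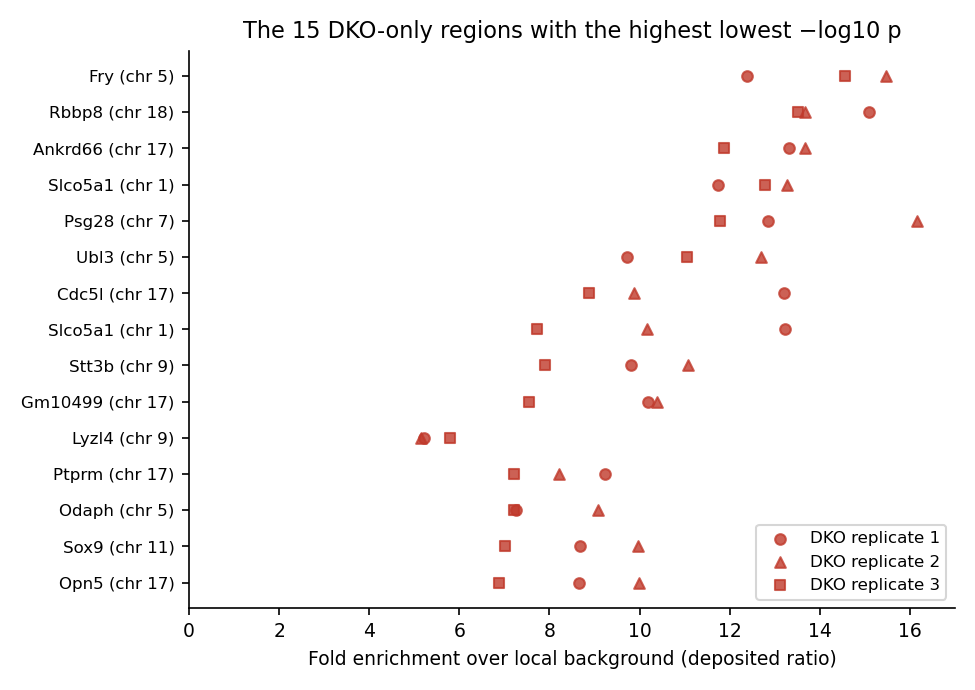
Fold enrichment (deposited ratio, linear axis from 0) of the 15 DKO-only regions with the highest value of the lowest −log10 p of their 3 DKO lines, with 1 point for each DKO library. Regions are named by the gene they were assigned to; no WT library had a line in them. DKO replicate 3 is the lowest of the 3 in most rows, and Fry stands at 12.4 to 15.5.

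Such strong regions were exceptions. The mean DKO fold enrichment of the 2076 members had a median of 3.74 (quartiles 3.42 and 4.16), against 6.78 over the regions listed in all 6. The medians in DKO replicates 1 to 3 were 3.63, 3.68 and 3.54 for members and 6.98, 7.17 and 6.33 for regions listed in all 6. The highest of a member's 3 DKO values exceeded the lowest by a median factor of 1.28. The cut sites behind a member were few, with a median of 14, 14 and 11 in DKO replicates 1 to 3. Only 45 members reached a mean fold enrichment of 6 and 8 reached 10.

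The absence of a WT line means that the site was under the end of that list, not that it was closed. Each list had been limited to 300000 lines, and its end differed between libraries. The WT lists ended at a −log10 p of 4.33, 3.63 and 5.63 (replicates 1 to 3). The DKO lists ended at 4.10, 4.17 and 3.54. At the ends of the lists, at least 10, 10 and 12 cut sites stood behind a line in WT, and 10, 10 and 8 in DKO. The background that the peak caller assigned most often, which rises with depth, was 2.42, 2.51 and 2.41 cut sites in WT and 2.58, 2.53 and 2.05 in DKO; the read totals themselves are not known from the lists. DKO replicate 3 had the lowest background and the most permissive list, and WT replicate 3 the strictest list.

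The lowest of a member's 3 DKO −log10 p values had a median of 4.63. In 413 members (19.9%, 95% Wilson interval 18.2 to 21.7, counting error only) all 3 DKO lines lay at or above the end of every WT list. The DKO lines of 1191 members (57.4%) all lay at or above the end of WT replicate 1 and those of 1837 (88.5%) at or above that of WT replicate 2, so WT replicate 3 set the smaller share. Without WT replicate 3 the share above the ends of the remaining WT lists was 57.8%. Against the ends of the DKO lists, of which the highest is 4.17, 2097 WT-only regions (94.2%) had all 3 WT lines at or above every end, and 748 (33.6%) had them at or above 5.63. When only lines at or above a −log10 p of 5.63 were used in all lists, 796 regions were DKO-only and the ratio of DKO-only to WT-only regions fell from 0.933 to 0.279. The numbers of sites in the 2 directions therefore depended on where the lists end.

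**Figure D2:**
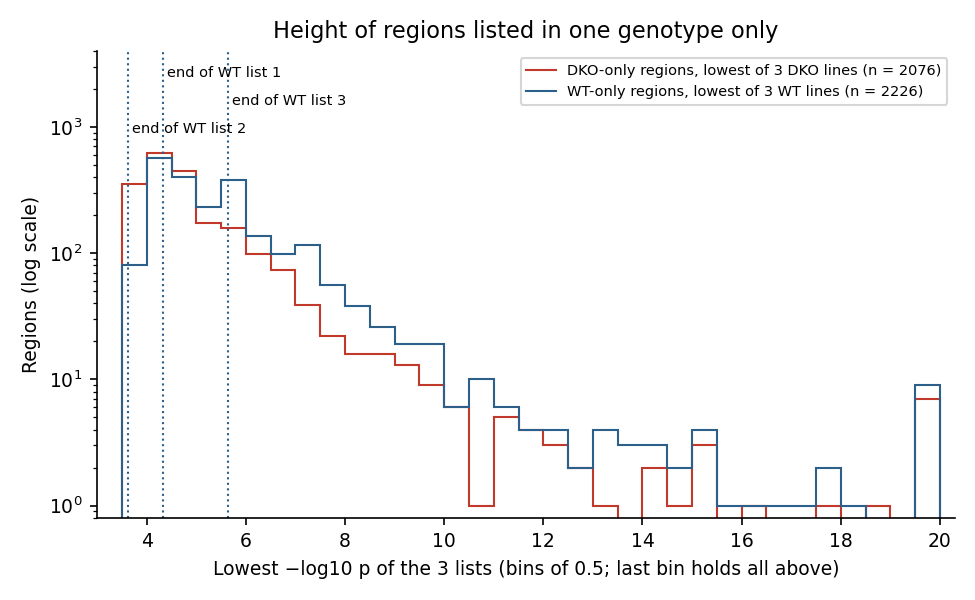
Number of regions (log axis) by the lowest −log10 p of their 3 lines, in bins of 0.5, for the 2076 DKO-only regions (DKO lines) and the 2226 WT-only regions (WT lines); dotted lines mark the ends of the WT lists. Most DKO-only regions lie left of the end of WT list 3 at 5.63, and 413 lie at or above it.

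At the margin of the rule, the weakest members stood at the end of the DKO lists. The 3 lowest, assigned to Bhlha9, Myocd and 2610307P16Rik, each had 10, 10 and 8 cut sites in DKO replicates 1 to 3, at a fold enrichment of 3.08, 3.12 and 2.95. Just outside the rule were 3551 regions with lines in all 3 DKO lists and in 1 WT list. The strongest of these, in an intron of 1700029J03Rik (chr16:93421723-93422554), had a fold enrichment of 13.7, 13.0 and 10.8 in DKO and a single WT line of 3.78, in WT replicate 2. A region in an intron of Bicra, a subunit of a BAF chromatin remodeller (chr7:16018405-16018734), had 5.47, 6.41 and 6.18 in DKO and 2.51 in WT replicate 2. A region at Zfp112 (chr7:24113159-24113357) had 5.97, 8.20 and 7.21 in DKO and 3.27 in the same WT library. Presence in 1 WT list thus separated these tall regions from members of like height.

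Whether the choice of sites carried over to libraries not used for it was examined by leaving out 1 WT and 1 DKO library. Regions with lines in the other 2 DKO lists, both with a −log10 q above 2, and in neither of the other 2 WT lists were followed in the 2 libraries left out. Over the 9 such choices, 4916 to 6357 regions were chosen. Between 51.8 and 55.4% of them were listed in the left-out DKO library, against 30.5 to 32.9% in the left-out WT library. The DKO library was ahead in 9 of 9 choices, by 19.3 to 24.8 percentage points. The 9 choices share libraries, so no test was made. Among chosen regions whose 2 DKO lines both lay at or above a −log10 p of 5.63, a median of 72.3% over the 9 choices were listed in the left-out DKO library and 38.4% in the left-out WT library. The mirrored choice gave a similar picture, with 53.0 to 58.6% of WT-only choices listed in the left-out WT library and 35.8 to 37.3% in the left-out DKO library.

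**Figure D3:**
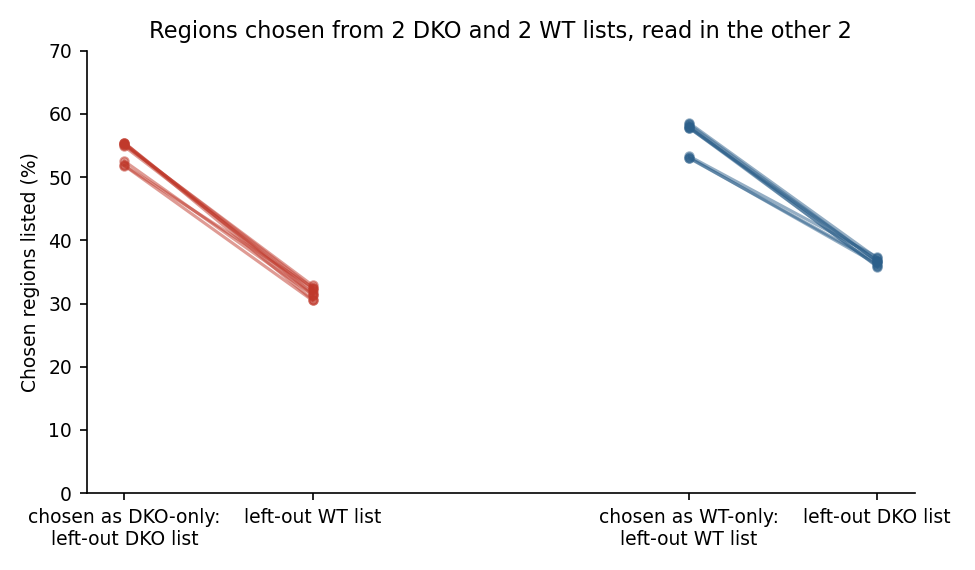
Share of regions (%) listed in each left-out library, for regions chosen as DKO-only (red) or WT-only (blue) from 2 DKO and 2 WT lists; each line joins the 2 libraries left out of 1 of the 9 choices. Regions chosen as DKO-only were listed in 51.8 to 55.4% in the left-out DKO list and in 30.5 to 32.9% in the left-out WT list.

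Members were mainly intronic or intergenic. The best DKO summit was in an intron in 1194 members (57.5%), in intergenic sequence in 707 (34.1%), in a UTR in 86 (4.14%), in a coding exon in 50 (2.41%) and in another exon in 39 (1.88%). For comparison, the regions listed in all 6 libraries were weighted to the members' distribution of mean DKO fold enrichment in 20 bins. Of these, 57.1% were intronic and 34.7% intergenic, close to the members. WT-only regions were less often intronic (45.7%) and more often intergenic (49.6%). The shares over all regions were 53.6% in introns, 38.9% in intergenic sequence, 3.71% in UTRs, 1.91% in coding exons and 1.92% in other exons.

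Within 1 kb of an annotated TSS were 240 members, or 11.6% (Wilson interval 10.3 to 13.0), against 17.4% of height-weighted regions listed in all 6. This difference of −5.86 percentage points did not hold under another weighting, as it was 1.06 when regions were weighted on −log10 p in place of fold enrichment. Among the 413 members above the ends of all WT lists, 14.0% were TSS-proximal, against 14.6% at their height. Only 8.13% of WT-only regions lay within 1 kb of a TSS, and 24.3% lay more than 50 kb from one, against 10.7% of members. Over all regions, 13.4% lay within 1 kb of a TSS and 14.8% more than 50 kb from one.

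Within 1 kb of a protein-coding TSS were 165 members (7.95%, against 10.4% of all regions). They had a median mean fold enrichment of 3.53, against 3.74 over all members. Of these, 42 (25.5%) lay above the ends of all WT lists, against 19.9% of all members. The highest by the lowest −log10 p lay in a coding exon of Tescl, 381 bp from its TSS (chr7:24333282-24333903), at a fold enrichment of 7.04, 8.79 and 6.23 in DKO replicates 1 to 3. Next were Gm19684 in the H2 complex (chr17:36120963-36121162) and Selenos, a selenoprotein of endoplasmic reticulum-associated degradation (chr7:66078937-66079073), at 3.15, 2.89 and 3.13. An intron of Prmt3, an arginine methyltransferase, held a member 438 bp from the TSS (chr7:49778681-49778851) at 3.92, 4.64 and 5.57. A UTR of Cd300a, an inhibitory receptor of myeloid cells, held one 275 bp from the TSS (chr11:114889952-114890423) at 6.43, 6.24 and 4.92. The member near Slc25a37, the mitochondrial iron importer mitoferrin-1 (chr14:69284238-69284457), stood at 2.94, 2.88 and 3.72. A WT line began within 300 bp of the Gm19684, Selenos, Slc25a37 and Prmt3 members, so that they flank a site that WT also had.

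GC content around the summit was close to that of regions listed in all 6. The median over 201 bp was 48.8% (quartiles 44.3 and 52.7), against 48.3% in height-weighted regions listed in all 6 and 43.8% in WT-only regions. The gap to regions listed in all 6 widened to 2.49 percentage points when these were weighted on −log10 p. The ratio of observed to expected CpG had a median of 0.206 in members, 0.223 in weighted regions listed in all 6 and 0.165 in WT-only regions. Summits in repeats, marked as soft-masked in the genome, made up 8.38% of members (interval 7.26 to 9.65), 7.89% of weighted regions and 8.65% of all regions.

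CTCF and AP-1 matches were less frequent in members than in height-weighted regions listed in all 6. A CTCF match within 100 bp of the summit was found in 6 of 2076 members (0.289%, interval 0.133 to 0.629), in 2.78% of weighted regions listed in all 6, in 2.16% of WT-only regions and in 2.23% of all regions. AP-1 matches were found in 467 members (22.5%, interval 20.8 to 24.3), in 26.6% of weighted regions listed in all 6 and in 27.7% of WT-only regions. Both differences were negative under every alternative tried, but their sizes varied. That for CTCF (−2.49 percentage points) ran from −1.26 with 50 bp flanks to −4.19 with a −log10 q above 5 in all DKO lists. That for AP-1 (−4.11 percentage points) ran from −1.42 without WT replicate 3 and −2.22 with 250 bp flanks to −10.6 with the same q limit. Among members above the ends of all WT lists, the AP-1 share was 19.4%, against 29.5% in regions listed in all 6 at their height, and the CTCF share was 0.726% against 3.53%.

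TEAD matches stood at 13.7% in members and 16.2% in weighted regions, C/EBP at 9.78 and 12.2%, GATA at 6.60 and 9.07%, and SP/KLF at 0.771 and 1.68%. Each of these weighted values lay outside the members' Wilson interval. RUNX (6.98 and 6.54%), the CAGCTG E-box (14.7 and 14.6%), EBF (0.723 and 0.961%), ETS (0.482 and 0.455%), NF-Y (2.17% in members), homeobox (2.46 and 3.25%) and CRE (0.674 and 0.473%) stood close together, and the homeobox value in weighted regions lay just above the members' interval (1.87 to 3.22%). NF-I was found in 1 member. In all regions, the shares were 25.8% for AP-1, 15.5% for TEAD, 11.3% for C/EBP, 9.67% for GATA, 6.63% for RUNX, 13.6% for the E-box, 1.56% for SP/KLF, 0.741% for EBF, 0.540% for ETS, 2.64% for NF-Y, 3.47% for homeobox, 0.513% for CRE and 0.0339% for NF-I. In WT-only regions C/EBP stood at 16.4% and GATA at 12.1%. Neighbouring sites are not independent, so the intervals cover counting error only.

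**Figure D4:**
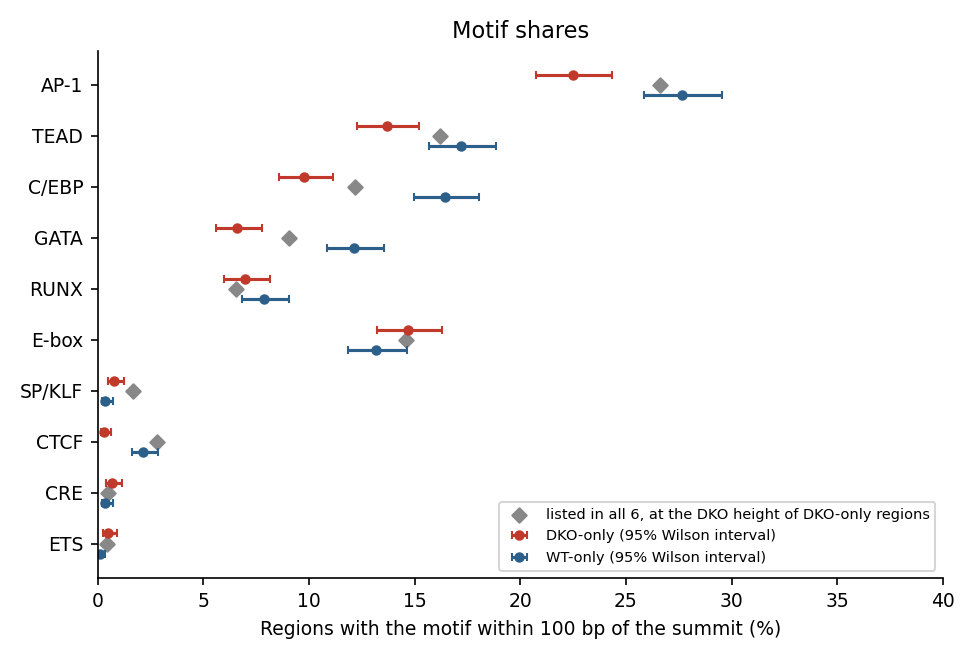
Share of regions (%) with a motif within 100 bp of the summit, for DKO-only and WT-only regions (points with 95% Wilson intervals) and for regions listed in all 6 libraries weighted to the DKO height of DKO-only regions (diamonds). DKO-only regions lie below the diamonds for AP-1, TEAD, C/EBP, GATA, SP/KLF and CTCF.

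Members were found on every autosome. Their share was highest on chromosome 17, where 132 of 10987 regions were DKO-only (1.20%), followed by chromosome 5 (0.951%) and chromosome 11 (0.887%), and lowest on chromosome 16 (0.622%). The strongest members were spread less evenly. Of 38 members with all 3 DKO lines at a −log10 p of 10 or more, 21 (55.3%) lay on chromosomes 5, 7 and 17, which hold 15.8% of all regions. These chromosomes, named after their values were seen, held 26.4% of the 413 members above all WT list ends and 17.9% of the members below. WT-only regions of the same height also lay there often, with 25 of 64 (39.1%).

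**Figure D5:**
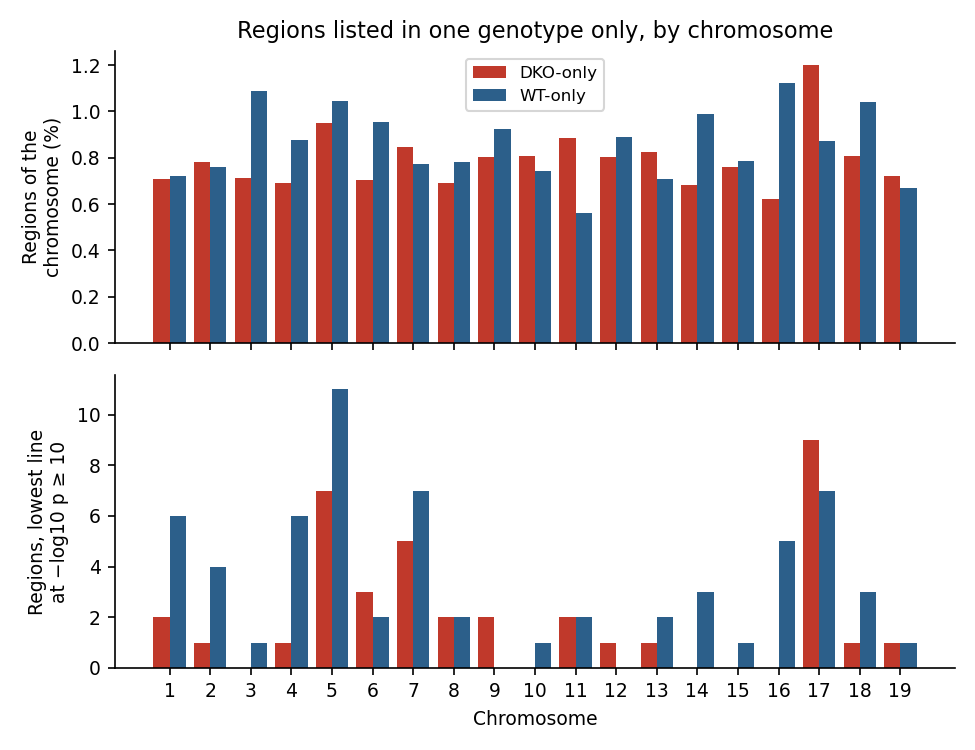
Top, share of the regions of each chromosome (%) that were DKO-only or WT-only. Bottom, number of those regions whose lowest line had a −log10 p of 10 or more. DKO-only shares run from 0.622% (chromosome 16) to 1.20% (chromosome 17), and 21 of the 38 strongest lie on chromosomes 5, 7 and 17.

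In 473 windows of 5 Mb with at least 100 regions, 428 held a member, with a median share of 0.706%. The highest was chromosome 7 from 15 to 20 Mb, where 23 of 650 regions were DKO-only (3.54%) and 11 were WT-only. Chromosome 17 held 10 of 399 (2.51%) from 35 to 40 Mb, which includes part of the H2 complex, and 11 of 493 (2.23%) from 40 to 45 Mb, which includes Ankrd66. Chromosome 11 from 55 to 60 Mb had 11 of 828 (1.33%). Chromosome 18 from 10 to 20 Mb had 6 of 930 (0.645%), among them the Rbbp8 site, and 19 WT-only regions.

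Members lay near each other more often than near WT-only regions. Of 77800 other regions within 100 kb of a member, counted once for each member, 866 (1.11%) were DKO-only and 475 (0.611%) WT-only. Around regions listed in all 6, the shares were 0.849 and 0.632%. Within 10 kb of a member, 1.72% of other regions were DKO-only, against 0.805% around regions listed in all 6. Another member lay within 100 kb of 647 members (31.2%) and within 10 kb of 130 (6.26%). WT-only regions likewise lay near each other, with 1.04% WT-only among the regions within 100 kb.

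The stretch of up to 100 kb with the most members, on chromosome 18 beside Ccny, a cyclin, held 6 in 80.1 kb among 29 regions, with 3 regions listed in all 6 and none WT-only. Their mean fold enrichments lay between 3.40 and 5.79. In the Psg28 and Psg26 stretch, members made up a larger share of the regions, with 5 among 11 regions in 62.2 kb and none listed in all 6. By length the Ccny stretch was denser, as 5 of its members lay within 23.5 kb. Introns of Dock2, a Rac activator of blood cells, held 4 members within 41.4 kb among 16 regions. In the H2 complex, chr17:36045240-36145756 held 4 members among 24 regions, assigned to Gm10499, Gm6034 and Gm7030. All 4 lay above the ends of all WT lists, and 2 regions of that stretch were WT-only.

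Sites near members that both genotypes had were also compared. They come from the libraries that chose the members, and some directly flank a member (709 members had a WT line within 1 kb), so this comparison is not independent of the rule. Regions listed in all 6 libraries within 10 kb of a member (2990 regions) were compared between genotypes as the median of quantile-normalised log2 fold enrichment, relative to all regions listed in all 6. The WT libraries had medians of −0.12, −0.09 and −0.12 (mean −0.11 ± 0.02, SD). The DKO libraries had −0.08, −0.06 and −0.07 (mean −0.07 ± 0.01). The groups did not overlap, and the DKO mean was higher by 0.04 on the log2 scale. Around WT-only regions the difference was −0.01. Because of the shared libraries these values are a description, with no test. Whether the values around DKO-only and WT-only regions differ from each other was not tested.

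Members were assigned to 1791 genes, by gene body or otherwise the nearest protein-coding TSS, and 1448 of the 1671 protein-coding genes had a single member. Taken by count and, among genes with 4, by summed fold enrichment, the first 8 were Ccny (6), Ptprm (5), Dock2, Rreb1, Lrp12, Tcf4, Lrmda and Ldlrad4 (4 each). Nova1 and Gm20388 also had 4. The number of regions these genes hold differed widely. The 6 members at Ccny were among 47 regions (12.8%). In genes with 4, these were among 21 regions at Dock2, 42 at Lrp12, 66 at Rreb1, 104 at Ldlrad4 and 109 at Nova1. Tcf4 had 135 regions, Lrmda 168 and Gm20388 517. The share at Gm20388 (0.774%) was under that of all regions. Ptprm, an adhesive receptor tyrosine phosphatase, held 5 members in its 688 kb body among 140 regions, together with 4 WT-only regions. Its tallest (chr17:67326760-67327168) had a fold enrichment of 9.23, 8.22 and 7.21, and another (chr17:66738342-66738597) had 6.43, 5.39 and 7.54. The tallest at Dock2 (chr11:34737220-34737583) had 4.75, 5.95 and 7.54. Rreb1, a zinc finger factor, Lrp12, an LDL receptor family member, and Tcf4, a bHLH factor, had members with mean values between 3.33 and 4.49. Those of Lrmda and Ldlrad4, an inhibitor of TGF-beta signalling, lay between 3.20 and 4.24.

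The shares of members in lists of fat cell genes are given beside the 0.790% of all regions. Adipogenic transcription factors had 7 members among 917 regions (0.763%), brown and beige adipocyte genes 3 of 380 (0.789%), white adipocyte genes 4 of 433 (0.924%), adipose progenitor markers 1 of 314 (0.318%), AP-1 genes 4 of 363 (1.10%) and fibrillar collagen and matrix genes 9 of 1036 (0.869%). WT-only regions numbered 9, 4, 9, 2, 3 and 12 in the same lists, which for white adipocyte genes is 2.08% against 0.847% of all regions. Among adipogenic factors, Cebpd, Ebf1, Gata2, Gata3 and Ppara had members, and none of the 7 lay above all WT list ends. A member lay 78 bp from a TSS of Gata2, which restrains adipocyte differentiation (chr6:88193887-88194067), at a fold enrichment of 3.12, 3.21 and 3.04, with a WT line 241 bp away. The Gata3 member (chr2:9632849-9633262), 245498 bp from a Gata3 TSS, stood at 4.47, 4.53 and 3.60, and that nearest Ppara, a fatty acid oxidation regulator (chr15:85708865-85709153), at 2.45, 3.04 and 2.76. The latter lay 26479 bp from a Ppara TSS, 1766 bp from a TSS of Mirlet7b and 45 bp from a WT line. The TSS nearest to the Gata3 member was that of Gm37866, 1761 bp away.

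The white adipocyte list had 2 members at Galnt9, a glycosyltransferase, 1 at Cd36, a fatty acid transporter, and 1 nearest Adamts5, a matrix protease, which was not above all WT list ends. Both Galnt9 members were intronic. The one nearest to a TSS (chr5:110603077-110603344) had a fold enrichment of 4.95, 3.38 and 3.66, and the other (chr5:110583227-110583462) had 3.91, 4.09 and 4.92. The Cd36 member (chr5:17857338-17857593) had 4.19, 4.53 and 5.90. The Galnt9 and Cd36 members lay above all WT list ends, with WT lines 81 and 136 bp from the Galnt9 members. Of brown and beige genes, Adrb3, the adipocyte beta-3 adrenergic receptor (3.63, 4.53 and 3.60), Ppargc1b, a coactivator of mitochondrial genes (3.35, 3.40 and 4.59), and Pank1, a coenzyme A synthesis kinase (3.35, 3.40 and 3.28), had 1 member each.

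Among the other lists, the F3 member (tissue factor; chr3:121713177-121713614) had 3.10, 3.83 and 3.53, and that nearest Maf, a bZIP factor (chr8:115494376-115494731), 5.59, 4.82 and 4.26. That of Maff (2.49, 2.70 and 2.89) was lower. The matrix list included members nearest Col1a2 (3.39, 3.06 and 3.37) and Col12a1 (3.35, 3.68 and 3.93) and one in Mmp2, a gelatinase (2.54, 3.14 and 3.62). Toll-like receptor genes had 2 members (1.55%) and 4 WT-only regions among 129. The members lay in an intron of Tlr2 (chr3:83839457-83839778) and in intergenic sequence nearest Tlr5 (4.31, 4.25 and 3.28 in DKO replicates 1 to 3). Genes whose symbol starts with H2- had 1 member among 123 regions (0.813%). That count leaves out genes of the H2 complex with other symbols, such as Gm10499.

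Marker genes were examined as a check on cell types. Of 8 adipose progenitor markers, 6 had a line within 1 kb of a TSS in all 6 libraries. Of 4 adipocyte markers 3 had none in any library, and Adipoq had 1 in DKO replicate 3. The immune markers had a line in 1 or 2 libraries or in none, and the muscle markers in none. Of endothelial markers, Pecam1 and Kdr had lines in all 6. Cdh5, the cadherin of endothelial cells, had a line at its TSS in the 3 DKO libraries and in no WT library and is itself a member (chr8:104101489-104101800, fold enrichment 3.91, 7.09 and 4.26), as is a site in its intron. Of all 423 regions assigned to the 23 markers, 6 were DKO-only (1.42%, against 0.790% of all regions) and 6 WT-only. Of the DKO-only ones, 2 were at Cdh5 and 2 nearest Kdr, with 1 each at Adgre1 and Myog. The part of other cell types in the DKO-only sites was not tested.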

How the data were processed

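ATAC-seq was analysed from 3 WT and 3 DKO libraries. Per the labels and the study, the authors trimmed paired-end reads with cutadapt 1.18, aligned them to mm10 with Bowtie2 2.3.4.3 and removed duplicate and mitochondrial reads. They called peaks with MACS2 for each library, at a p of 0.01 by the list names although the study gives default settings, and kept up to 300000 lines. In the deposited lists, fold enrichment is the ratio of cut sites plus 1 to local background plus 1, and p and q are −log10 values. Depth is not corrected in them. Cut sites were computed from both values. Of the lines examined in each library, 99.8 to 100% came out whole within 0.001.

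Lines were merged with Python 3.11 (pandas, scipy), and summits annotated with GENCODE M21 basic on GRCm38. Height weighting used 20 bins. Intervals are 95% Wilson intervals. Members, lists and rules were chosen with earlier results of these data known. Named were the 15 members with the highest lowest −log10 p, the first 8 protein-coding genes by number of members (ties by summed fold enrichment), the 6 highest promoter members, Fry, Slco5a1 and Ankrd66, up to 3 members for each gene list, and regions at the margin of the rule, since the q condition removed none. Cdh5, Tlr2, Tlr5, the chromosomes 5, 7 and 17 and the stretches with most members were named after their values were seen. The scripts were tested on simulated lists. Same-numbered libraries did not deviate together, with correlations between −0.053 and 0.0056 over regions listed in all 6. Alternatives are given in the closing section.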

Additional observations from a re-analysis of the deposited data

How the results depend on the processing

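The number of DKO-only regions was 146 with a −log10 q above 5 in all 3 DKO lists, 796 with 1 limit for all lists, and 3215 to 4345 when 1 library was left out; the ratio of DKO-only to WT-only regions was 0.527, 0.279 and 0.687 to 1.11. With the q limit of 5, GC minus that of height-weighted regions was 1.49 points, the TSS share 1.23 (turned), AP-1 −10.6, CTCF −4.19, the share within 100 kb 0.507% (9.13 times the share of all regions, against 1.41 times as reported), members above every WT list end 100% (fixed by this limit) and the median height 5.35. With 1 limit for all lists these were −3.94 (TSS), −6.51 (AP-1), −3.04 (CTCF), 0.901% (2.13 times), 100% (again fixed) and 4.58. With q above 2 in all 3 lists, GC was 0.995, the share within 100 kb 0.970% (1.46 times), members above every end 23.7% and height 3.82. Merging intervals up to 100 bp apart gave −2.74 for CTCF. Without weighting, TSS was −7.45, repeats 2.06, AP-1 −10.2 and CTCF −3.86, and weighting on −log10 p gave 2.49 (GC), 1.06 (TSS, turned) and −6.23 (AP-1). Other windows gave −2.22 (AP-1, 250 bp), −1.26 (CTCF, 50 bp), 0.758 (GC, whole region), −1.09 (TSS, 200 bp) and −10.6 (TSS, 5 kb). The share of members was 1.72% within 10 kb and 0.919% within 1 Mb. The cause of these shifts was not tested.

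Leaving out 1 library gave ranges of 0 to 0.995 (GC), −6.45 to −2.63 (TSS), 0.201 to 1.09 (repeats), −6.87 to −1.42 (AP-1, smallest without WT replicate 3), −2.59 to −2.12 (CTCF), 1.64 to 2.25% (share within 100 kb, 1.24 to 1.33 times that of all regions), 21.0 to 57.8% (members above every end, highest without WT replicate 3), 3.60 to 3.77 (height) and 0.04 to 0.07 (log2 difference at neighbouring sites). The planned exact permutation test of that difference was not used, since the sites are not independent of the rule. With all libraries this exact permutation test gave p = 0.10, the smallest p it can give for 3 against 3 libraries. Without DKO replicate 1 the exact permutation test gave p = 0.20. Same-numbered libraries shared only a number. With the number as a replicate block the difference at neighbouring sites is 0.0375 by arithmetic, so the block is no check on its size. The exact permutation test within blocks gave p = 0.25. The limit on lines decides where a list ends, so a lower but open WT site could not be seen.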

Other observations

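The sex chromosomes were not part of the 262808 regions. On chromosome X, 11 of 4611 regions were DKO-only (0.239%) and 73 were WT-only (1.58%), and on chromosome Y 1 of 52 was DKO-only. Within 10 Mb of Hmgn2 on chromosome 4, 37 of 3424 regions were DKO-only (1.08%) and 12 WT-only (0.350%). Within 10 Mb of Hmgn1 on chromosome 16, 16 of 1786 were DKO-only (0.896%) and 15 WT-only. On chromosome 13 from 35 to 40 Mb, which holds Rreb1, 13 of 657 regions were DKO-only and 1 was WT-only. Beside Cd72, a B cell surface protein, 3 members lay among 9 regions assigned to it, at mean fold enrichments between 4.02 and 5.67, and none was WT-only. C5ar1, a complement receptor, had 3 members among 5 regions. These genes and stretches were named after their values were seen.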
